A study of Homo sapiens with 8 samples.

Results

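The Siglecs are sialic-acid-binding receptors of the immunoglobulin superfamily. 8 of their genes (SIGLEC1, CD22, CD33, SIGLEC5, SIGLEC6, SIGLEC7, SIGLEC9 and SIGLEC10) were followed among the 26830 gene symbols of the deposited table. They were taken by symbol and were chosen from earlier results of the same libraries, so their levels and differences are given as a description, with no test. 7 of the 8 reached 1 TPM (a length-scaled share of a library's transcripts that sums to 1000000) in at least 2 libraries, and SIGLEC9 did not. The table holds 9 further Siglec genes, which makes 17 in all.

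The libraries are poly(A) RNA of NOMO-1 and MOLM-13, human acute myeloid leukaemia lines with an MLL gene fusion. Each line was compared between a short hairpin RNA targeting ALKBH5 (shALKBH5) and a non-targeting hairpin (shNS). ALKBH5 is an enzyme that removes the N6-methyladenosine mark from RNA. There are 8 libraries in 4 groups of 2 (n = 2 for every mean and SD). All shALKBH5 libraries carry the same single hairpin, shALKBH5-#1, so a hairpin effect and a loss of ALKBH5 cannot be told apart. Both arms were transduced and selected with puromycin, per the labels, whose texts differ on the length of selection and also mention an FTO virus and drugs that no sample label lists. Whether replicates are separate cultures is not stated, so SDs and p-values reflect the spread of the sequenced libraries alone, possibly technical spread.

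Siglecs bind sialic acid, the sugar that caps many glycans of vertebrate cells, and most of them carry tyrosine motifs (ITIMs) in the cytoplasmic tail that recruit the phosphatases SHP-1 and SHP-2. A smaller set has no such motif and pairs with the adaptor DAP12, which signals through SYK. SIGLEC1 and CD22 are conserved among mammals, whereas CD33 and its relatives form a fast-evolving cluster. In myeloid leukaemia CD33 is known as the target of the antibody-drug conjugate gemtuzumab ozogamicin.

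In GENCODE 29 (GRCh38), SIGLEC1 lies on the minus strand of chromosome 20 from 3686970 to 3707128, and the other 7 lie on chromosome 19. CD22 (plus strand, 35319261 to 35347355) starts at -15905.8 kb relative to the start of CD33. CD33 itself (plus strand, 51225064 to 51243860) has SIGLEC9 (plus strand, 51124908 to 51136651) and SIGLEC7 (plus strand, 51142299 to 51153526) on one side. On its other side, all on the minus strand, are SIGLEC10 (51410021 to 51417803), SIGLEC6 (51519525 to 51531856) and SIGLEC5 (51611927 to 51645545). The span of SIGLEC5 overlaps that of SIGLEC14 (minus strand, 51642553 to 51646801), its partner gene that encodes an activating receptor.

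SIGLEC5 and SIGLEC14 are shown first because reads of one can be assigned to the other. Of the distinct 50-base words in the annotated SIGLEC5 transcript, 29.3% also occur in SIGLEC14, against 5.72% of SIGLEC10 words in SIGLEC11, at most 0.56% of the words of SIGLEC6, SIGLEC7 and SIGLEC9 in any other Siglec gene, and none for SIGLEC1, CD22 and CD33. The values of SIGLEC5 are therefore uncertain with respect to SIGLEC14. Their promoters are alike too. In the 250 bases before each RefSeq start (GRCh38.p14), the last 113 bases, printed in capitals, are identical. RefSeq starts can differ from the GENCODE 29 spans given above, and the SIGLEC5 window lies inside the GENCODE span of SIGLEC5. The SIGLEC5 window is chr19:51630402-51630651 and the SIGLEC14 window chr19:51646826-51647075, both on the minus strand and written 5′ to 3′.
SIGLEC5: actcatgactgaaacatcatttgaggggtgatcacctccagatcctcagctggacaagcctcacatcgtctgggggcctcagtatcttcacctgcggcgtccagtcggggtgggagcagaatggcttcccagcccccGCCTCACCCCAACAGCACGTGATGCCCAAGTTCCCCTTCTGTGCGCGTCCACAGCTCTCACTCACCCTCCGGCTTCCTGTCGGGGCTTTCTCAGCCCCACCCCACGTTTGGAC
SIGLEC14: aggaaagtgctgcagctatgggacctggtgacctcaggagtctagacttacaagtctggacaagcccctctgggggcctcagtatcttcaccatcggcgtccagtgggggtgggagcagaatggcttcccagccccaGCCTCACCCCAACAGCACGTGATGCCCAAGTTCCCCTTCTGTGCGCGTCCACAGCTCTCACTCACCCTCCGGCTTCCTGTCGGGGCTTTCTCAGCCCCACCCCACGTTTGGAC

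The promoters of CD33 and SIGLEC6 are printed because these are the members that stood lower in NOMO-1 and higher in MOLM-13 with the hairpin against ALKBH5. The CD33 window is chr19:51224830-51225079 on the plus strand and the SIGLEC6 window chr19:51531671-51531920 on the minus strand. Capitals mark matches to GAGGAA or its reverse complement TTCCTC, the core bound by the myeloid factor PU.1, searched on both strands.
CD33: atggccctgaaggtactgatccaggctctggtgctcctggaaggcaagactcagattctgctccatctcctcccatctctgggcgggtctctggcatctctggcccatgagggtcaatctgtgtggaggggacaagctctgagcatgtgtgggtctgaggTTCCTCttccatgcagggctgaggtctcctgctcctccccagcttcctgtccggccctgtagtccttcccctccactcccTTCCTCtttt
SIGLEC6: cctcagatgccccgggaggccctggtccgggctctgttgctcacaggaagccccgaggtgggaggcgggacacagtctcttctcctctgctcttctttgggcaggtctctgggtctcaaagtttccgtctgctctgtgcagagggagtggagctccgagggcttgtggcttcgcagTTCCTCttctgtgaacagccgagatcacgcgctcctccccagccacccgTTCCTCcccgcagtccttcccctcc
Each holds 2 matches, both as TTCCTC. The motif, chosen after the expression values were known, occurs at least once in 8277 of the 35116 promoter windows of this length in the table (23.6%). The share of windows with 2 or more matches was not counted. Of the 7 members with a window, SIGLEC7 and SIGLEC9 also hold the motif, and CD22, SIGLEC5 and SIGLEC10 do not. A match describes the letters only. SIGLEC1 has no window in the table.

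ALKBH5 itself was lower in both shALKBH5 libraries than in both controls of its line, 4.86 times by group mean in NOMO-1 and 5.45 times in MOLM-13. The markers of the labelled lineage were present in every library: the myeloid regulators SPI1 and CEBPA stood at 120 TPM or more, and LYZ, the lysozyme gene, at 463 TPM or more. CD14, a monocyte marker, and MPO, the myeloperoxidase gene, stayed at or below 0.48 TPM in NOMO-1. MPO stood at 384 and 457 TPM in the MOLM-13 controls and 19.3 and 16.4 TPM with shALKBH5. CD14 stood there at 3.28 and 3.31 TPM in the controls, 16.3 TPM in shALKBH5 replicate 1 and 0.98 TPM in replicate 3. The 10 myeloid markers summed to 1226 and 1261 TPM in the NOMO-1 controls and 2988 and 2921 TPM with shALKBH5, and to 10320 and 9778 TPM and 20450 and 13150 TPM in MOLM-13. LYZ and CD68 made up most of these sums in NOMO-1, and LYZ in MOLM-13. The median of the 10 genes lay 0.08 and 0.29 above the control mean in NOMO-1 on the log2(TPM + 1) scale. In MOLM-13 it lay 0.51 above in replicate 1 and 0.1 in replicate 3. SPI1, CEBPA, FCGR1A and CD14 stood below both controls in both NOMO-1 shALKBH5 libraries, as did ITGAM, FCGR1A and MPO in MOLM-13. The part of these markers in the Siglec levels was not tested. B-cell markers were near the floor, with MS4A1 and BLK listed at 0 in all libraries. Library depth is unknown, because TPM does not keep it. The deposited scale also shifts between groups: the median log2 difference over the 14302 genes tested (at least 1 TPM in at least 2 libraries) was 0.158 in NOMO-1 and -0.18 in MOLM-13, and differences below are to be read relative to these. Since these are bulk libraries, fewer cells of a type and less RNA per cell cannot be told apart.

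The lines differed in which Siglecs they expressed before any knockdown. In the shNS libraries of NOMO-1 the 8 genes summed to 243 and 238 TPM, and in those of MOLM-13 to 94.6 and 103 TPM. CD33 made up 34.0% and 34.6% of that sum in NOMO-1 but 92.3% and 93.9% in MOLM-13. CD33 and SIGLEC6 thus led in NOMO-1, at near-equal levels, while CD33 stood almost alone in MOLM-13. 7 of the 8 were higher in both NOMO-1 controls than in both MOLM-13 controls, as were 57.9% of all genes tested. CD33 was the 1 member lower, as were 31.6% of all genes tested. The members' median difference was 2.91 on the log2(TPM + 1) scale, beside 0.285 over all genes tested.

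**Figure D1:**
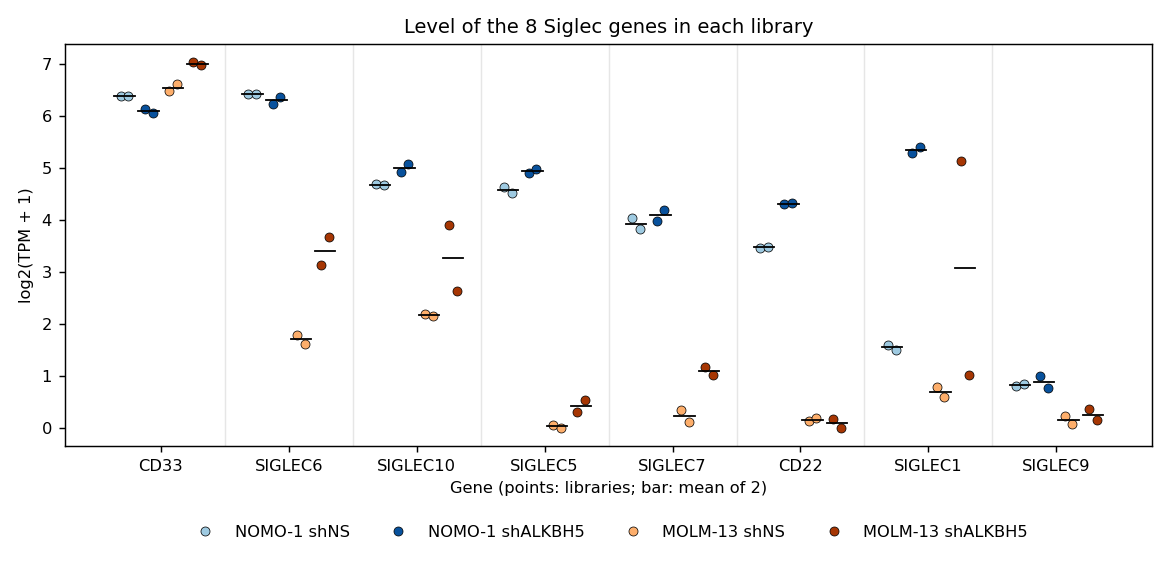
Level of each of the 8 Siglec genes on the log2(TPM + 1) scale, with 1 point per library and a bar at the mean of the 2 libraries of a group. CD33 is high in all 4 groups, SIGLEC6, SIGLEC10, SIGLEC5, SIGLEC7 and CD22 are high mainly in NOMO-1, and SIGLEC1 is high in NOMO-1 shALKBH5 and in 1 of the 2 MOLM-13 shALKBH5 libraries.

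With the hairpin against ALKBH5, 4 members (SIGLEC1, CD22, SIGLEC5 and SIGLEC10) stood above both controls in both NOMO-1 libraries and 2 (CD33 and SIGLEC6) below. Of all genes tested, 52.1% stood above in this way and 30.5% below. In MOLM-13 6 members (SIGLEC1, CD33, SIGLEC5, SIGLEC6, SIGLEC7 and SIGLEC10) stood above and none below, and 21.3% of all genes tested stood above and 46.2% below. Because the members were chosen from these contrasts, nothing is read from their counts. The same genes made up each count after median-of-ratios scaling, which moves the median difference of all genes to 0 in NOMO-1 and 0.029 in MOLM-13. The members' median difference was 0.239 in NOMO-1 and 0.664 in MOLM-13 on the log2(TPM + 1) scale. Their summed level went from 243 and 238 TPM to 273 and 288 TPM in NOMO-1, and from 94.6 and 103 TPM to 187 and 144 TPM in MOLM-13.

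**Figure D2:**
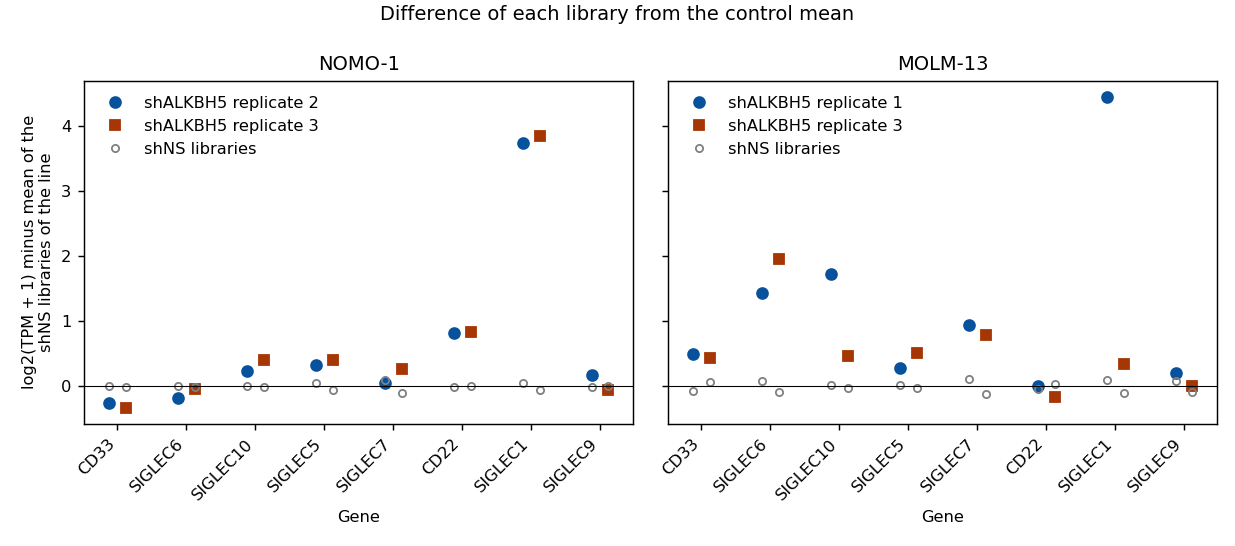
Difference of each library from the mean of the shNS libraries of its line, on the log2(TPM + 1) scale, for the 8 genes. Filled symbols are shALKBH5 libraries and open circles shNS libraries; CD33 and SIGLEC6 lie below 0 in NOMO-1 and above 0 in MOLM-13, and SIGLEC1 splits between the 2 MOLM-13 shALKBH5 libraries.

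SIGLEC1 encodes sialoadhesin (CD169), a large macrophage receptor without an ITIM whose expression is known to be induced by type I interferon. Its NOMO-1 levels were 2.01 and 1.82 TPM with shNS and at 37.8 and 40.9 TPM with shALKBH5. Both knockdown libraries were high and the groups lay far apart, with means of 1.92 ± 0.134 and 39.3 ± 2.16 TPM (SD), a ratio of 20.5 and a log2(TPM + 1) difference of 3.79 (SE 1.16, pooled over all 4 groups). In MOLM-13 the controls stood at 0.71 and 0.5 TPM, and the shALKBH5 libraries at 33.9 TPM in replicate 1 and 1.03 TPM in replicate 3. Only replicate 1 was high there, so the group mean of 17.5 ± 23.2 TPM describes neither library. The log2(TPM + 1) difference was 4.45 for replicate 1 alone and 0.34 for replicate 3 alone.

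A list of 20 interferon-stimulated genes was high in the MOLM-13 library in which SIGLEC1 was high. It summed to 185 and 170 TPM with shNS, 1906 TPM in shALKBH5 replicate 1 and 111 TPM in replicate 3. Relative to the control mean, the median of its genes was 3.77 higher in replicate 1 and 0.75 lower (-0.75) in replicate 3 on the log2(TPM + 1) scale, where SIGLEC1 stood 0.34 above its controls. MX1, a gene of the list, was not high in replicate 1, at 0.42 TPM against 0.44 and 0.55 TPM. IFIT1, which binds foreign RNA, stood at 1.96 and 1.43 TPM with shNS, 70.7 TPM in replicate 1 and 0.35 TPM in replicate 3. ISG15, a ubiquitin-like modifier, stood at 215 TPM in replicate 1 and 16.2 TPM in replicate 3, and RSAD2, an antiviral enzyme, at 18.0 and 2.66 TPM. The part of these genes in the MOLM-13 level of SIGLEC1 was not tested. In NOMO-1, where SIGLEC1 was 20.5 times higher, the list's medians were 0.06 and 0.12, and IFIT1 stood at 5.11 and 4.37 TPM with shNS against 5.28 and 5.63 TPM with shALKBH5. ISG15 stood higher in both NOMO-1 shALKBH5 libraries, at 32.1 and 32.7 TPM against 16.4 and 21.3 TPM. The summed list was 387 and 402 TPM in the NOMO-1 controls and 549 and 542 TPM with shALKBH5. Most of the higher sum was 1 gene, IFI6, at 169 and 175 TPM against 338 and 319 TPM. USP18, XAF1, OAS1, OASL, IFI27 and CMPK2 also stood above both controls in both NOMO-1 shALKBH5 libraries. USP18 stood at 4.3 and 4.3 TPM with shNS against 18.1 and 18.5 TPM. Genes of the list that stood lower in both were IFIT2, IFIT3, IFI44, MX1, MX2, HERC5 and OAS3, the last at 28.2 and 29.2 TPM against 11.2 and 12.2 TPM. The part of the list in the NOMO-1 level of SIGLEC1 was not tested.

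**Figure D3:**
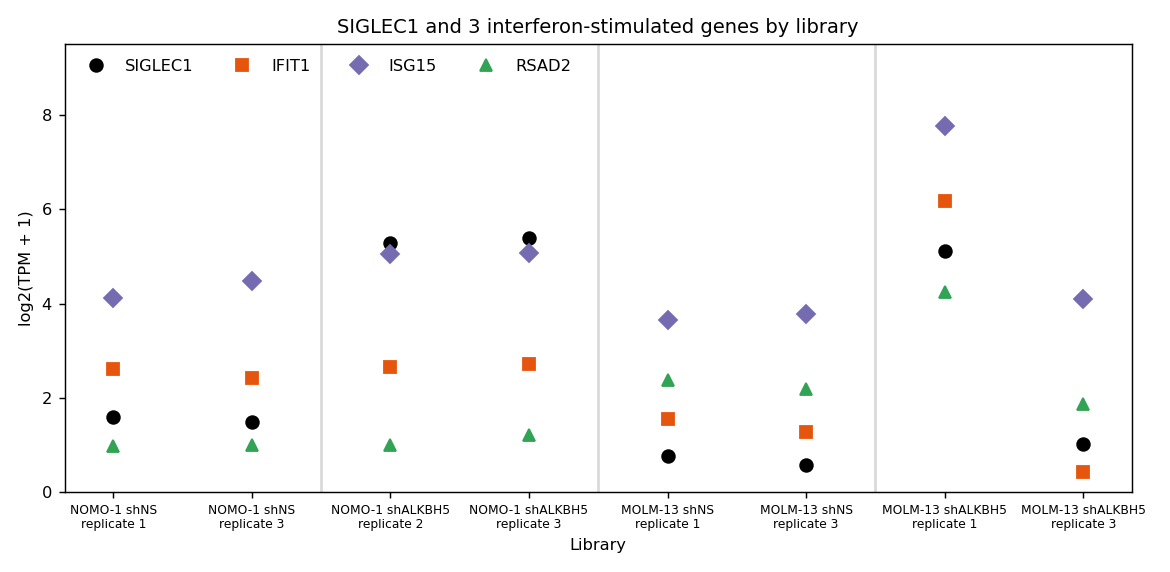
Level of SIGLEC1 and of the interferon-stimulated genes IFIT1, ISG15 and RSAD2 in each of the 8 libraries, on the log2(TPM + 1) scale. In MOLM-13 all 4 genes are high in shALKBH5 replicate 1, and in NOMO-1 shALKBH5 SIGLEC1 is high while IFIT1 stays between 4.37 and 5.63 TPM in NOMO-1.

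Macrophage markers were also followed beside SIGLEC1. Their sum over 8 genes was 42.9 and 46.5 TPM in the NOMO-1 controls and 118 and 122 TPM with shALKBH5. In MOLM-13 it was 4.55 and 4.68 TPM with shNS, 17.4 TPM in shALKBH5 replicate 1 and 24.6 TPM in replicate 3. MARCO, a scavenger receptor, and C1QA, a complement subunit, made up most of the NOMO-1 sums. C1QA stood at 3.8 and 3.86 TPM in the NOMO-1 controls and 31.3 and 32.4 TPM with shALKBH5. MARCO made up most of the MOLM-13 sums, at 10.3 TPM in replicate 1 and 22.5 TPM in replicate 3. VSIG4 (3.23 and 0.91 TPM) and CD163 (1.76 and 0.5 TPM) were higher in replicate 1 there. The list's medians above the control mean were 0.22 and 0.06 in NOMO-1, and in MOLM-13 0.79 in replicate 1 and 0.06 in replicate 3, on the log2(TPM + 1) scale. MRC1, C1QB and MSR1, further markers, stayed at or below 0.12 TPM in all libraries. The part of these genes in the level of SIGLEC1 was not tested.

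The 5 genes whose centred log2(TPM + 1) profile over the 8 libraries lay nearest to that of SIGLEC1, by root mean square difference, were SLAMF7 (0.599), HP (0.758), FPR1 (0.81), HMOX1 (0.834) and NUPR1 (0.853). SLAMF7 encodes an immune-cell surface receptor. It stood at 5.78 and 5.97 TPM in the NOMO-1 controls and 57.8 and 46.2 TPM with shALKBH5. Its MOLM-13 levels were 0.64 and 0.54 TPM with shNS, 46.7 TPM in shALKBH5 replicate 1 and 0.33 TPM in replicate 3. All 5 stood above their controls in both NOMO-1 shALKBH5 libraries and in MOLM-13 shALKBH5 replicate 1. The 5 were picked by nearness to SIGLEC1 over these same libraries, so this pattern follows largely from the choice and nothing is read from it.

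CD22 encodes an inhibitory receptor best known from B cells. Its NOMO-1 levels were 10.0 and 10.2 TPM with shNS and at 18.7 and 18.9 TPM with shALKBH5, a ratio of 1.86 and a log2(TPM + 1) difference of 0.83 (SE 0.11). Both knockdown libraries lay above both controls, and the spread within each group was at most 0.134 TPM (SD). In MOLM-13 CD22 stood at or below 0.14 TPM in all 4 libraries and the groups overlapped. B-cell markers stood lower beside it. PAX5, the B-lineage regulator, stood at 4.91 and 4.19 TPM in the NOMO-1 controls and 2.54 and 2.71 TPM with shALKBH5, and the 6 B-cell markers together summed to 8.73 and 8.25 TPM and to 5.48 and 5.61 TPM.

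CD33 stood at or above 65.3 TPM in all 8 libraries. In NOMO-1 its values were 82.5 and 82.5 TPM with shNS and 69.1 and 65.3 TPM with shALKBH5, a ratio of 0.815 and a log2(TPM + 1) difference of -0.29 (SE 0.091). Its MOLM-13 values were 87.4 and 96.4 TPM with shNS and 129 and 125 TPM with shALKBH5, a ratio of 1.38 and a difference of 0.46 on the same scale. The groups did not overlap in either line and the directions were opposite. Median-of-ratios scaling moved these differences further apart, to -0.51 and 0.76. The share of CD33 in the summed members went from 34.0% and 34.6% to 25.4% and 22.7% in NOMO-1, and from 92.3% and 93.9% to 69.2% and 86.5% in MOLM-13, although its level in MOLM-13 was higher. The 5 genes nearest to CD33 in profile over the 8 libraries were LOC100130548 (0.076), RHOT2 (0.083), ARRDC1 (0.09), ADCK3 (0.094) and ADCY7 (0.097), and the first of these stayed at or below 1.19 TPM throughout.

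SIGLEC6, a receptor known from placental trophoblast and mast cells, matched CD33 in NOMO-1 and was low in MOLM-13. The NOMO-1 levels were 83.9 and 83.8 TPM with shNS and 73.7 and 81.5 TPM with shALKBH5, a log2(TPM + 1) difference of -0.11 (SE 0.18). The knockdown libraries lay just below the controls, and the difference was -0.04 without shALKBH5 replicate 2 and -0.18 without replicate 3. The MOLM-13 levels were 2.43 and 2.06 TPM with shNS and 7.73 and 11.6 TPM with shALKBH5, a ratio of 4.31 and a difference of 1.70. Both MOLM-13 knockdown libraries were high, replicate 3 more so than replicate 1, the reverse of the order of SIGLEC1. Among mast-cell markers, the tryptase gene TPSAB1 stood between 795 and 824 TPM in NOMO-1 and was listed at 0 in MOLM-13. TPSB2, another tryptase gene, stood between 1.82 and 3.0 TPM in NOMO-1 and at or below 0.31 TPM in MOLM-13. CPA3, HDC, MS4A2 and KIT stayed at or below 0.7 TPM in NOMO-1.

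SIGLEC10, an inhibitory receptor for CD24, stood at 24.7 and 24.3 TPM in the NOMO-1 controls and 29.0 and 32.7 TPM with shALKBH5, a log2(TPM + 1) difference of 0.32 (SE 0.37). In MOLM-13 it stood at 3.56 and 3.45 TPM with shNS, 13.9 TPM in shALKBH5 replicate 1 and 5.22 TPM in replicate 3, a difference of 1.10. Without replicate 1 this difference was 0.47, and without replicate 3 it was 1.73. Both knockdown libraries were above the controls in each line, and in MOLM-13 replicate 1 stood far above replicate 3. After median-of-ratios scaling the NOMO-1 difference of SIGLEC10 was 0.108. SIGLEC5, an inhibitory receptor of myeloid cells, stood at 23.6 and 21.7 TPM in the NOMO-1 controls and 28.6 and 30.3 TPM with shALKBH5, a difference of 0.37 (SE 0.12). Median-of-ratios scaling moved this difference to 0.155. In MOLM-13 SIGLEC5 was at 0.04 TPM and listed at 0 in the controls, and at 0.24 and 0.45 TPM with shALKBH5, so no ratio is given. SIGLEC14, which shares sequence with it, stood at 38.0 and 38.5 TPM in the NOMO-1 controls and 44.4 and 48.9 TPM with shALKBH5, and in MOLM-13 at 6.72 and 6.24 TPM against 21.8 and 16.6 TPM.

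SIGLEC7, an inhibitory receptor of natural killer cells and monocytes, stood at 15.3 and 13.1 TPM in the NOMO-1 controls and 14.7 and 17.2 TPM with shALKBH5, and the groups overlapped. In MOLM-13 it stood at 0.27 and 0.08 TPM with shNS and 1.24 and 1.03 TPM with shALKBH5, both above the controls, a log2(TPM + 1) difference of 0.87 (SE 0.15). SIGLEC9, its neighbour, known from neutrophils and monocytes, was at or below 0.99 TPM in all 8 libraries and its groups overlapped in both lines. Of the T-cell and natural-killer markers, CD3D, CD3E, KLRD1 and GNLY stayed at or below 0.3 TPM in every library. CD2, an adhesion receptor of the same list, stood at 2.76 and 2.36 TPM in the NOMO-1 controls and 8.63 and 7.14 TPM with shALKBH5, and at or below 0.3 TPM in MOLM-13.

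The other Siglec genes ranged as widely. SIGLEC12 stood at 49.9 and 48.3 TPM in the NOMO-1 controls and 32.4 and 36.4 TPM with shALKBH5, lower in both libraries like CD33, and at or below 0.43 TPM in MOLM-13. The pseudogene SIGLEC17P stood between 13.8 and 19.7 TPM in NOMO-1, with overlapping groups, and at or below 0.64 TPM in MOLM-13. SIGLEC15 and SIGLEC16 stayed at or below 3.3 TPM, and SIGLEC8, SIGLEC11, SIGLECL1 and MAG at or below 0.86 TPM. In the NOMO-1 controls the order by mean level was SIGLEC6, CD33, SIGLEC12, SIGLEC14, SIGLEC10, SIGLEC5, SIGLEC17P, SIGLEC7 and CD22, and no neighbours in that stretch overlapped. In NOMO-1 shALKBH5, SIGLEC1 came after SIGLEC6, CD33 and SIGLEC14, while SIGLEC12, SIGLEC10 and SIGLEC5 overlapped their neighbours. In MOLM-13 shALKBH5, CD33 led, and SIGLEC14, SIGLEC1, SIGLEC6 and SIGLEC10 followed with overlapping values.

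**Figure D4:**
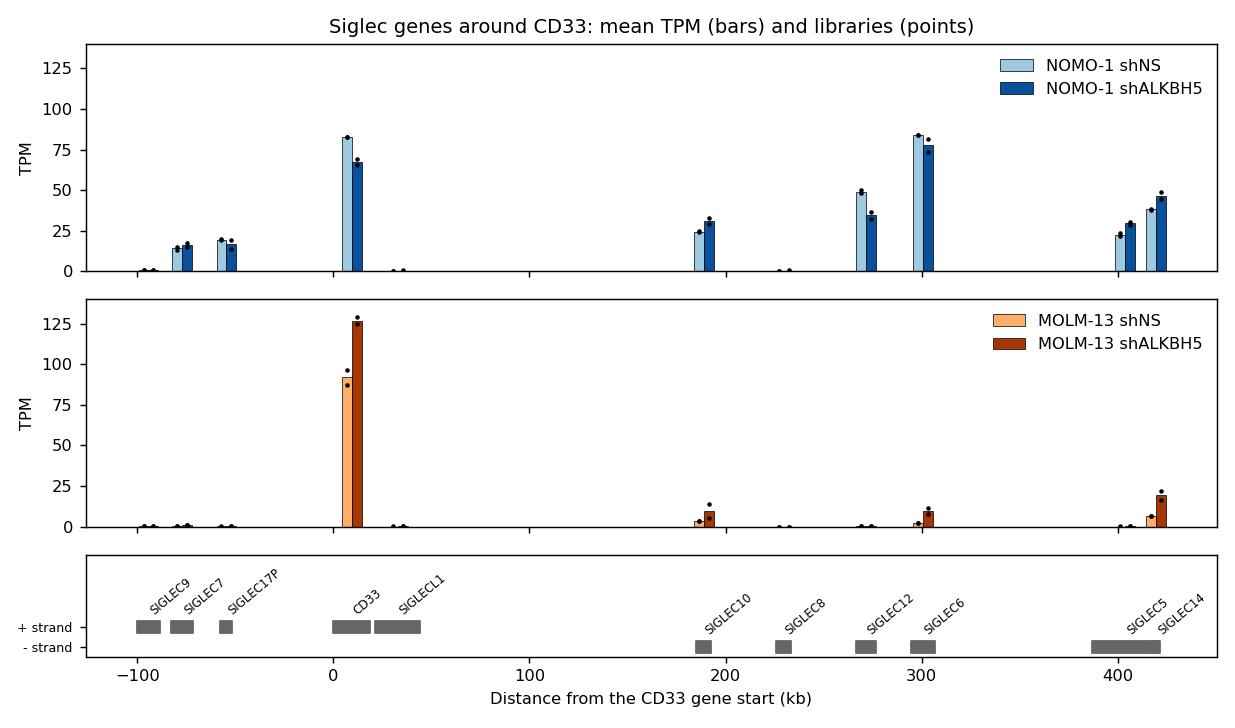
Siglec genes around CD33 on chromosome 19, drawn to scale by distance from the CD33 gene start (kb), with the mean TPM of each group as bars, the libraries as points and the strand of each gene in the lowest panel. Levels differ widely within the cluster: CD33 stands at 82.5 TPM in the NOMO-1 controls, while SIGLECL1 next to it and SIGLEC9 stay below 1 TPM.

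Genes that supply, attach, remove or read sialic acid were followed as 6 lists of 55 genes, of which 46 could be tested. They were tested with limma on log2(TPM + 1) and Benjamini-Hochberg adjustment over the 14302 genes. In NOMO-1 15 rose and 8 fell, beside 28.6% of all genes tested that rose and 15.0% that fell. In MOLM-13 9 rose and 11 fell, beside 10.6% and 31.2%. Between the controls 20 were higher and 8 lower in NOMO-1, beside 40.6% and 19.2%. After median-of-ratios scaling the counts were 13 and 11 in NOMO-1, 18 and 10 in MOLM-13 and 16 and 14 between the controls. The number past the threshold in NOMO-1 (23) went to 11 without shNS replicate 1, 10 without shNS replicate 3, 13 without either of its shALKBH5 libraries and 36 without either MOLM-13 shALKBH5 library. In MOLM-13 (20) it went to 11 without either shNS library, 37 without shALKBH5 replicate 1 and 35 without shALKBH5 replicate 3. Between the controls (28) it went to 18 without NOMO-1 shNS replicate 3. Of the genes named below, PTPN11, HCST, SLC17A5 and NEU1 passed in both lines under all 17 alternative settings. CSK in MOLM-13 and ST8SIA4 and SELPLG in NOMO-1 passed in 8 of 17, ST6GAL1 in MOLM-13 in 9, FYN and CMAS in NOMO-1 in 10, and NEU3 in NOMO-1 in 6.

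The difference between the knockdown effects of the lines passed the limma test for 16 of the 46 genes. The NOMO-1 effect was the higher for 12 and the lower for 4, beside 29.7% and 4.90% of all genes tested, whose median difference was 0.417. After median-of-ratios scaling the counts were 10 higher and 13 lower, and the median over all genes was -0.018. The 16 went to between 2 and 4 when any 1 of the NOMO-1 libraries or MOLM-13 shNS libraries was left out, to 35 without MOLM-13 shALKBH5 replicate 1 and to 31 without its replicate 3.

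Of the 12 genes of ITIM signalling, 1 rose and 3 fell in each line, with medians of 0.214 in NOMO-1 and -0.057 in MOLM-13. PTPN11, which encodes SHP-2, stood at 121 and 120 TPM in the NOMO-1 controls and 29.1 and 39.1 TPM with shALKBH5, and fell by 1.80 on the log2 scale (limma adjusted p = 0.000685). MOLM-13 had 133 and 133 TPM against 47.8 and 38.3 TPM, and PTPN11 fell by 1.62 (limma adjusted p = 0.00101). PTPN6, which encodes SHP-1, had differences of 0.22 (limma adjusted p = 0.41) and 0.51 (0.0816). CSK, the kinase that restrains Src-family kinases, fell by 0.80 in NOMO-1 (limma adjusted p = 0.00656) and by 0.51 in MOLM-13 (0.0356). The Src-family kinase gene FYN fell by 0.53 in NOMO-1 and by 1.76 in MOLM-13 (limma adjusted p = 0.0361 and 0.000648). FYN was low in NOMO-1, at 1.84 and 2.02 TPM with shNS and 0.76 and 1.34 TPM with shALKBH5. Its MOLM-13 levels were 8.94 and 8.91 TPM against 2.08 and 1.78 TPM. FGR, of the same family, rose by 1.72 in MOLM-13 (limma adjusted p = 0.0206) with a difference of 1.16 in NOMO-1 (0.0716). FGR levels in MOLM-13 were 15.8 and 15.4 TPM with shNS, 90.9 TPM in shALKBH5 replicate 1 and 31.6 TPM in replicate 3.

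Of the 4 genes of the activating arm, 3 rose in NOMO-1 and 2 in MOLM-13, and none fell. TYROBP, which encodes DAP12, stood at 11.2 and 11.4 TPM in the NOMO-1 controls and 29.0 and 24.9 TPM with shALKBH5, a log2 rise of 1.18 (limma adjusted p = 0.00919). MOLM-13 levels of TYROBP were 175 and 176 TPM and at 527 and 308 TPM, a rise of 1.19 (limma adjusted p = 0.0099). HCST, which encodes the related adaptor DAP10, rose by 0.98 and 0.88 (limma adjusted p = 0.00226 and 0.00377). FCER1G, another adaptor gene, rose by 1.47 in NOMO-1 (limma adjusted p = 0.0211) and had a difference of -0.94 in MOLM-13 (0.0896). FCER1G levels in MOLM-13 were 39.1 and 38.2 TPM with shNS, 31.4 TPM in shALKBH5 replicate 1 and 12.2 TPM in replicate 3. The kinase gene SYK had differences of -0.31 (limma adjusted p = 0.267) and -0.09 (0.765), and in MOLM-13 its sign turned with median-of-ratios scaling.

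Genes of sialic acid supply split. In NOMO-1 4 of 7 rose and 1 fell, and in MOLM-13 2 rose and 3 fell. SLC17A5, which exports sialic acid from lysosomes, stood at 35.0 and 37.5 TPM in the NOMO-1 controls and 199 and 201 TPM with shALKBH5, a log2 rise of 2.43 (limma adjusted p = 0.00024). In MOLM-13 it rose by 0.80 (limma adjusted p = 0.00224). GNE, which starts sialic acid synthesis, rose by 1.49 in NOMO-1 (limma adjusted p = 0.000819) and by 0.45 in MOLM-13 (0.0497, past the threshold in 6 of 17 alternative settings). CMAS, which activates sialic acid for transfer, fell by 0.41 in NOMO-1 and by 1.27 in MOLM-13 (limma adjusted p = 0.0328 and 0.000731). NPL, which breaks sialic acid down, rose by 0.77 in NOMO-1 (limma adjusted p = 0.0182) and had a difference of -0.31 in MOLM-13 (0.236), with the opposite sign after quantile normalization.

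Of the 20 sialyltransferases 13 could be tested. In NOMO-1 2 rose and 4 fell, and in MOLM-13 1 rose and 4 fell. ST6GAL1, which makes the alpha-2,6 linkage that CD22 prefers, stood at 35.3 and 36.2 TPM in the NOMO-1 controls and 11.3 and 14.3 TPM with shALKBH5, and fell by 1.43 on the log2 scale (limma adjusted p = 0.00128). In MOLM-13 it fell by 0.59 (limma adjusted p = 0.03). ST3GAL1, which caps O-glycans, stood at 120 and 119 TPM in the NOMO-1 controls and 442 and 401 TPM with shALKBH5, and rose by 1.81 (limma adjusted p = 0.00147), with a difference of 0.33 in MOLM-13 (0.279). ST8SIA4, a polysialyltransferase gene, fell by 0.94 and 1.63 (limma adjusted p = 0.0376 and 0.00591). ST6GALNAC4 rose by 1.15 in MOLM-13 (limma adjusted p = 0.00119), with a difference of 0.18 in NOMO-1 (0.299), whose sign turned after median-of-ratios scaling.

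Of the 4 testable genes of the sialidase list, 3 rose in each line and none fell. The 4 are the sialidase genes NEU1, NEU3 and NEU4, and CTSA, whose product is not itself a sialidase. NEU1, the lysosomal sialidase, stood at 118 and 125 TPM in the NOMO-1 controls and 370 and 338 TPM with shALKBH5, and rose by 1.53 (limma adjusted p = 0.000353). MOLM-13 levels of NEU1 were 54.1 and 49.4 TPM and 122 and 112 TPM, and NEU1 rose by 1.16 (limma adjusted p = 0.000606). CTSA, whose product holds NEU1 in its lysosomal complex, rose by 0.69 and 1.12 (limma adjusted p = 0.00305 and 0.000721). NEU3, the plasma-membrane sialidase, rose by 0.32 and 0.94 (0.0466 and 0.00122 by the same limma test).

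Of the 6 testable sialylated partners of Siglecs, 2 rose and none fell in NOMO-1, and none rose and 1 fell in MOLM-13. SPN, which encodes the heavily sialylated CD43, rose by 0.65 in NOMO-1 (limma adjusted p = 0.0107), with a difference of -0.25 in MOLM-13 (0.19), whose sign turned under both other scalings. SELPLG, the selectin ligand gene, rose by 0.33 in NOMO-1 (limma adjusted p = 0.0233), with 0.10 in MOLM-13 (0.417). PTPRC, which encodes CD45, fell by 1.01 in MOLM-13 (limma adjusted p = 0.0243), with 0.24 in NOMO-1 (0.52). PTPRC levels in MOLM-13 were 184 and 171 TPM with shNS, 119 TPM in shALKBH5 replicate 1 and 64.5 TPM in replicate 3. CD24, the partner of SIGLEC10, stood at or below 3.02 TPM in NOMO-1 and 0.12 TPM in MOLM-13, with differences of 0.10 (limma adjusted p = 0.481) and -0.03 (0.876). The sign turned after median-of-ratios scaling in both lines and after quantile normalization in NOMO-1.

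**Figure D5:**
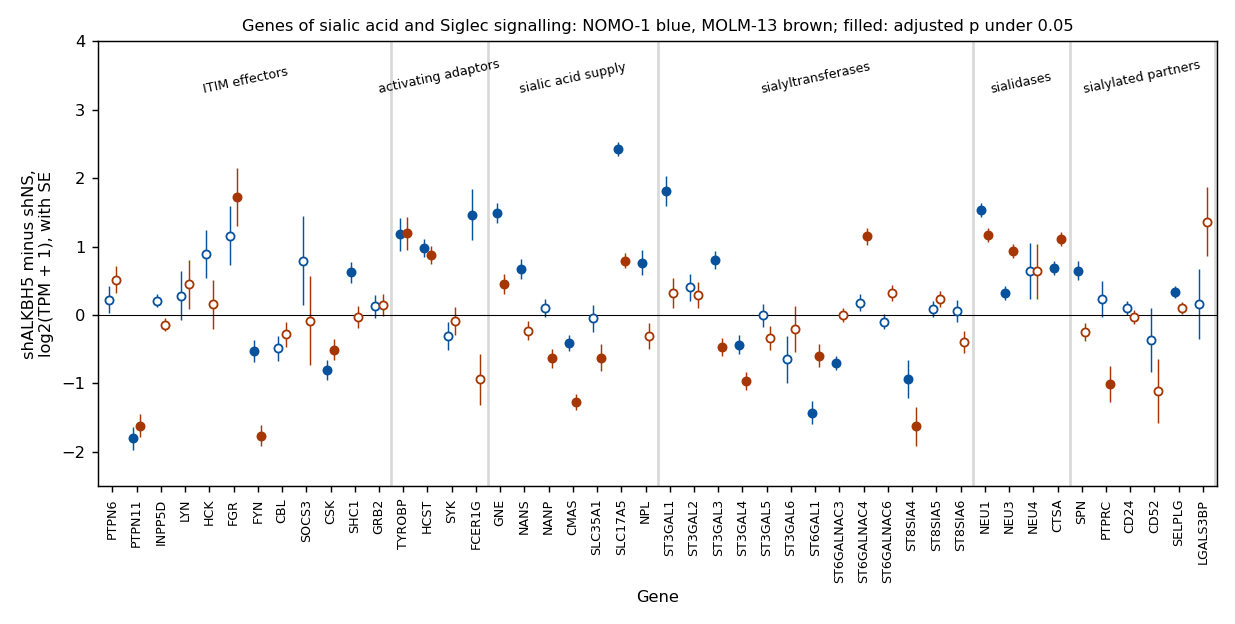
Log2(TPM + 1) difference of shALKBH5 minus shNS for the 46 testable genes in the 6 lists, in NOMO-1 and in MOLM-13, with bars of 1 SE. Filled points passed the limma threshold of 0.05 after adjustment and open points did not; PTPN11 lies below 0 and NEU1 and SLC17A5 above 0 in both lines.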

How the data were processed

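The authors deposited 1 table of TPM for 26830 symbols and 8 libraries, in which every column sums to 1000000. The submitters' processing notes name STAR, RSEM and the build GRCh38. Tool versions, the gene annotation and strandedness: not given in the sources used here. Depth cannot be read from TPM, so no counting interval is given and the planned count test was not run.

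limma 3.58.1 in R 4.3.3 was fitted to log2(TPM + 1), a pseudocount of 1, with a mean for each of the 4 groups, an intensity trend, two-sided tests, 4 residual and 2.29 prior degrees of freedom, and Benjamini-Hochberg adjustment over the 14302 genes that reached 1 TPM in 2 or more libraries (threshold 0.05). The spread of a gene is pooled over groups. The fit was tested on simulated data. Differences on this scale understate changes of low genes.

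The members and the gene lists were chosen with earlier results of these data known. Genes named are the 8 members, the other Siglecs, ALKBH5, IFIT1, ISG15, RSAD2, 10 pathway genes chosen by name (PTPN6, PTPN11, TYROBP, SYK, ST6GAL1, CMAS, GNE, NEU1, SPN and CD24), up to 4 further members of each pathway list past the threshold by size of difference, and the 5 nearest profiles to SIGLEC1 and CD33. Marker genes named beside the members were chosen after their values were seen. Coordinates and transcripts are from GENCODE 29 and promoters from RefSeq. Alternatives were other pseudocounts, scalings and filters, groups fitted alone, a replicate block and leaving out each library. Tables and figures used Python 3.11.15.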

Additional observations from a re-analysis of the deposited data

Results flagged for a closer look

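CD33 and SIGLEC6 stood lower in both NOMO-1 shALKBH5 libraries and higher in both MOLM-13 shALKBH5 libraries than in every control of the line. The NOMO-1 minus MOLM-13 effect was -0.76 for CD33 and -1.81 for SIGLEC6 on the log2(TPM + 1) scale. SIGLEC12 had -0.76 in the same pattern, but in MOLM-13 it never passed 0.43 TPM. These 3 differences were not tested.

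For genes of the sialic acid lists, the difference between the lines was tested in limma on the deposited scale. The NOMO-1 effect was the higher for FCER1G (2.41), SLC17A5 (1.64), ST3GAL1 (1.48), ST3GAL3 (1.28), PTPRC (1.24), FYN (1.23), NPL (1.07), GNE (1.04), NANS (0.90), SPN (0.90), CMAS (0.86) and NANP (0.74). It was the lower for ST6GALNAC4 (-0.97), ST6GAL1 (-0.83), ST6GALNAC3 (-0.70) and NEU3 (-0.62). ST6GALNAC3 stood at or below 0.08 TPM in MOLM-13, so its value restates its NOMO-1 difference. GNE and NANP did not pass after median-of-ratios scaling or quantile normalization, and the other 14 passed in the same direction under both. Only 2 to 4 genes of the lists passed without any 1 of the NOMO-1 or MOLM-13 shNS libraries. The limma adjusted p ranged from 0.00222 for SLC17A5 to 0.0451 for PTPRC. CMAS and FYN fell in both lines, so their positive value marks a larger fall in MOLM-13. FYN was low in NOMO-1, where the pseudocount shrinks its fall. Without a pseudocount its log2 ratios were -0.88 in NOMO-1 and -2.21 in MOLM-13.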

How the results depend on the processing

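The SIGLEC1 difference in NOMO-1 (3.79) was 4.29 with a pseudocount of 0.1, 2.68 with a pseudocount of 5, 3.52 after median-of-ratios scaling and 3.47 after quantile normalization. CD33 moved to -0.51 and -0.41 in NOMO-1 and to 0.76 and 0.74 in MOLM-13 under these scalings, with its directions kept. Leaving out 1 library gave 3.74 to 3.85 for SIGLEC1 in NOMO-1, 0.34 to 4.45 in MOLM-13, and -0.33 to -0.25 and 0.39 to 0.53 for CD33. Alternatives for the counts of members, for the other members and for the difference between the lines were chosen after seeing the data. Median-of-ratios scaling left the counts of members above or below their controls the same. Of 80 alternative values for the other members, 27 moved by more than the replicate spread or reversed. By pseudocount, SIGLEC7 ranged from 0.246 to 2.253, SIGLEC5 from 0.09 to 1.87 and SIGLEC6 from 1.006 to 2.035 in MOLM-13, and SIGLEC6 in NOMO-1 ranged from -0.041 (without shALKBH5 replicate 2) to -0.327 (median-of-ratios scaling). The difference reversed for SIGLEC7 in NOMO-1 (-0.045 after median-of-ratios scaling) and for CD22 in MOLM-13 (-0.157 to 0.007 when 1 library was left out, the upper value without shALKBH5 replicate 3). The cause was not tested. The number of pathway genes past the threshold was 36 in NOMO-1 and 11 in MOLM-13 when the compared groups were fitted alone. Without 1 library it ranged from 10 to 36 in NOMO-1, 11 to 37 in MOLM-13 and 18 to 35 between the controls; a lone library left in a group was assumed to vary like the other groups. With the replicate number as a block it was 7 in NOMO-1 and 13 in MOLM-13. For the difference between the lines (16), it was 0 with the replicate block (limma; 16 at an unadjusted p under 0.05) and 2 to 35 without 1 library. The labels tie no number to a shared batch. For same-numbered MOLM-13 libraries, the deviations from the group mean correlated at 0.131 over 8803 genes of at least 10 TPM on average. This is not the correlation of the levels themselves, and 2 pairs cannot show whether they share a batch. The count test was not run, since TPM holds no counts, and depth limits cannot be given.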
